A study of Sus scrofa domesticus with 28 samples.

Results

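The mid scar biopsies of a red Duroc pig scar model made up 8 of the 28 arrays of the series and were compared with 4 arrays of control skin. They were chosen by their titles, which begin with mid, and no measured value entered the choice. The mid scars comprised 4 groups of 2 arrays each, 1 per animal, namely pressure hyper, pressure hypo, sham hyper and sham hypo. Hyper and hypo are the pigmentation phenotype of the scar in the labels. The other scar arrays, used here only as neighbouring phases, were 8 of early scar, all labelled sham (4 hyper and 4 hypo), and 8 of late scar in the same 4 groups of 2 as mid scar. All biopsies came from 2 juvenile castrated male red Duroc pigs, numbered 49 and 50, and the control arrays were 1 from the right and 1 from the left side of each. What the pressure and sham treatments consisted of, and the unit of a number that the mid titles carry, were not stated. In mid scar every pressure biopsy came from the right side and every sham biopsy from the left, so treatment and side cannot be told apart. A code in the titles (a1 or a3) went with hyper and hypo without exception and cannot be told apart from them either. With 2 animals, p-values measure mainly the spread between biopsies within them.

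The red Duroc pig is used as an animal model of thick, raised scarring after deep wounds. In such a scar, fibroblasts lay down collagen fibres and proteoglycans in place of the normal dermis, new vessels grow in, and immune cells stay for a long time. Hair follicles, apocrine and sebaceous glands are epithelial structures that extend into the dermis, and a full-thickness wound removes them. Melanocytes sit in the basal epidermis and in hair follicles and make melanin in organelles called melanosomes, which pass to keratinocytes. A whole-skin biopsy holds all these cells together. In such bulk samples, fewer cells of a type and less RNA per cell cannot be told apart.

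Each biopsy's RNA was labelled with Cy5 and hybridised with a universal pig reference RNA in Cy3. Levels below are log2 ratios of biopsy over reference, and differences are differences of these ratios, each with its standard error from limma. Of 43603 probes, between 31.4% and 55.7% per array were well above background in the Cy5 channel. After filtering and keeping 1 probe per gene, 18766 features were tested, and 2606 of them carried a gene symbol. Control values are given in the order right and left side of animal 49, then left and right side of animal 50, and mid values as the lowest, median and highest of 8. Features were called at a Benjamini-Hochberg adjusted p under 0.05.

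The biopsies carried skin markers, since involucrin, a protein of the upper epidermis, and E-cadherin were well above background in all 8 mid and all 4 control biopsies. Several biopsies stood apart in marker genes. The mean level of 40 skeletal muscle genes, relative to the control mean, was 4.25 in the pressure hyper biopsy of animal 49, against -0.15 to 1.2 in the other mid biopsies. The macrophage and dendritic cell list of 27 genes stood at 1.89 in the sham hypo biopsy of animal 49 and at 1.80 in the pressure hyper biopsy of animal 50, against 0.21 to 0.80 in the others. The sweat and apocrine gland list stood at -0.75 in the sham hyper biopsy of animal 49, against -2.40 to -1.97 in the other 7. Among the controls, the left biopsy of animal 50 was lowest in the collagen chain list (-0.91, against -0.11 to 0.56) and in several immune and vessel lists.

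**Figure D1:**
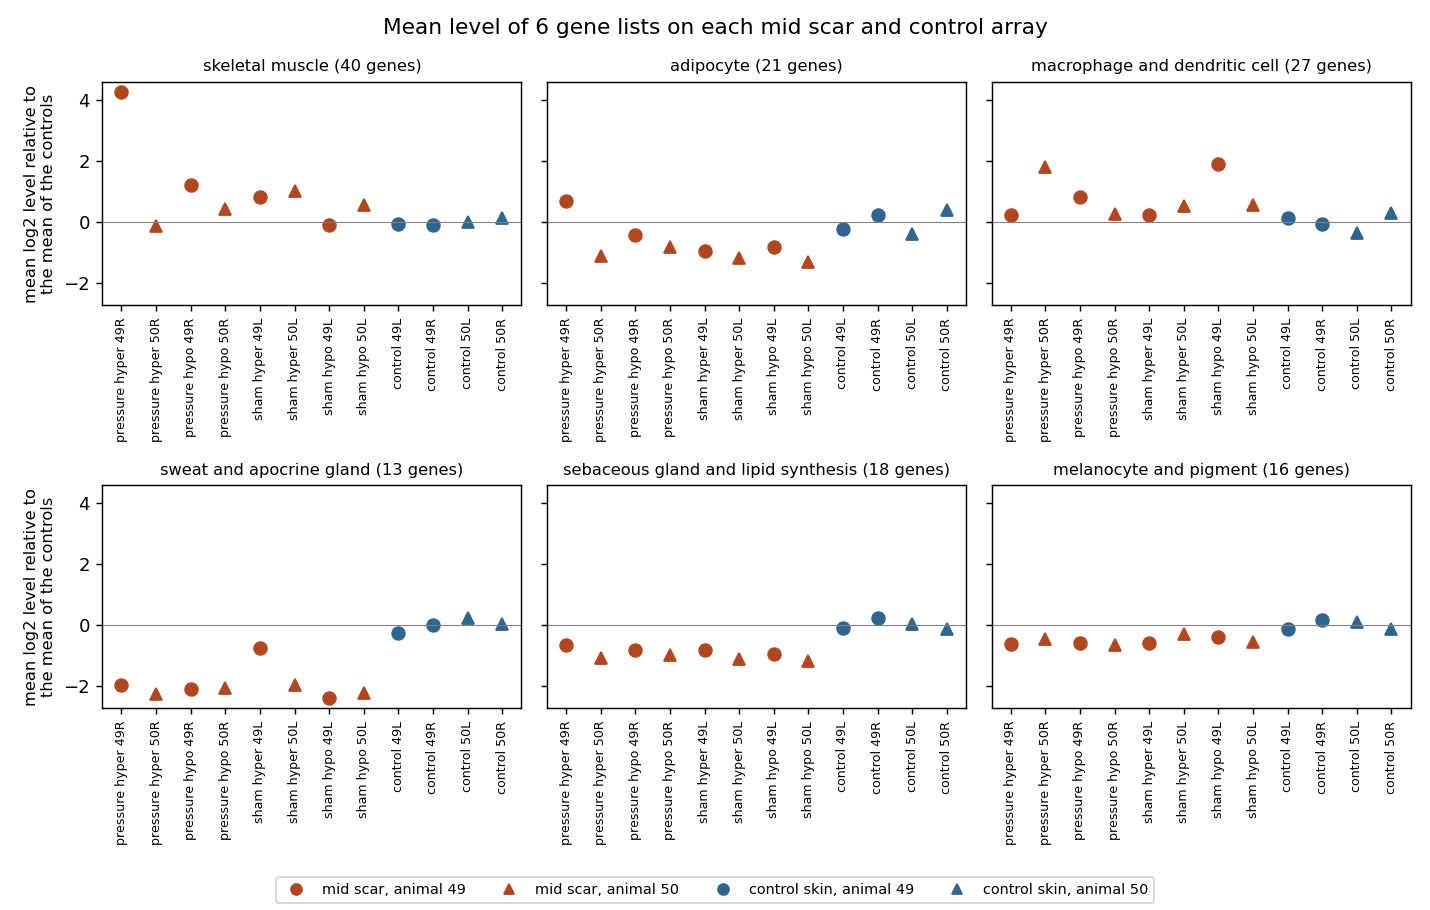
Mean log2 level of 6 gene lists (vertical axis, relative to the mean of the 4 controls) on each of the 8 mid scar and 4 control arrays (horizontal axis, 1 point per array, circles for animal 49 and triangles for animal 50). The skeletal muscle mean reaches 4.25 in the pressure hyper biopsy of animal 49, which also has the highest adipocyte mean at 0.69, and the gland mean of the sham hyper biopsy of animal 49 is the highest of the mid biopsies at -0.75.

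Mid scar differed from control skin in 6340 of the 18766 features. In mid scar 4153 features were higher (22.1% of those tested) and 2187 were lower (11.7%), and 795 and 512 of these differed by at least 2-fold. Among features with a symbol, 433 were higher and 424 were lower. Of the 4153 higher features, 174 were well above background in no control and in 4 or more mid biopsies. Of the 2187 lower features, 86 were well above background in no mid biopsy and in all 4 controls. For these features the size of the difference was not measured. The median difference over all features was 0.10. The gene list counts below are to be read beside this median and the shares of 22.1% and 11.7%. Of all 18766 features, called or not, 1373 had every mid value above every control value, and 1051 had every mid value below. Leaving out the left control of animal 50 reduced the calls to 3896, of which 3873 were among the 6340. With slide as a further block, 2779 features were higher and 1366 lower. On the slide with 1 mid and 2 control arrays, 97.2% of 6304 called features kept their direction, and on the slide with 1 of each, 93% of 6303 did. These arrays also entered the fit that made the calls, so the shares only describe them and are no test of slide.

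**Figure D2:**
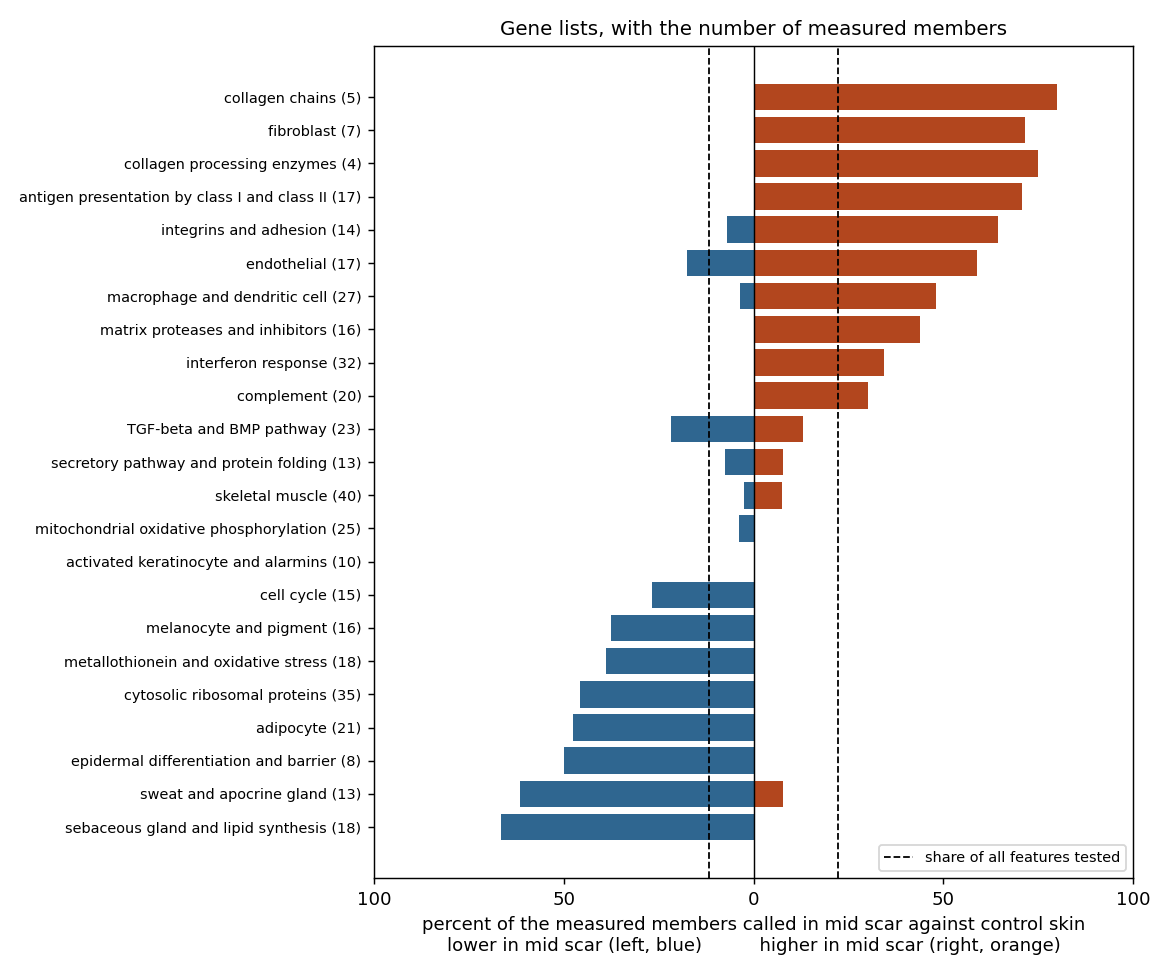
Percent of the measured members of 23 gene lists (vertical axis, number of members in brackets) that were called higher (right, orange) or lower (left, blue) in mid scar against control skin at an adjusted p under 0.05. Dashed lines mark the shares among all features tested, 22.1% higher and 11.7% lower. The collagen chain, collagen processing and fibroblast lists extend furthest to the right, and the sebaceous and apocrine gland lists furthest to the left among the lists drawn.

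Of the 5 collagen chains measured, 4 rose and the median difference was 1.89, against 0.10 over all features. Asporin (ASPN), a small leucine-rich proteoglycan that binds collagen, had 2.60, 4.28 and 5.73 as its lowest, median and highest level in mid scar, against 0.71, 1.78, 0.37 and 2.05 in control skin. Every mid biopsy lay above every control, and the difference was 3.04 ± 0.51 (adjusted p = 0.000231, limma). This call was lost with the local background not capped. COL5A2, a chain of the collagen V that nucleates collagen fibrils, ranged from 1.87 to 4.44 with a median of 2.96 in mid scar, against 1.03, 1.69, 0.35 and 1.72 in control skin. It rose by 1.89 ± 0.46 (adjusted p = 0.00427), again without overlap, and its partner chains COL5A1 and COL5A3 rose by 2.16 ± 0.42 and 0.50 ± 0.17 (adjusted p = 0.000707 and 0.0292). The COL5A3 call was lost under 4 of the 12 fits that left out 1 array. It was also lost with slide as a further block and with the local background not capped. COL8A1, a short-chain collagen of vessels and remodelling tissue, rose by 2.07 ± 0.55 (adjusted p = 0.00697). Its lowest mid value, -0.55, lay within the controls, and its call was lost without the left control of animal 50. COL1A2, a chain of the main dermal collagen, ranged from 2.82 to 5.15 in mid scar, against 2.67, 3.80, 1.35 and 3.43 in control skin, and its difference of 1.55 ± 0.66 did not pass (adjusted p = 0.0745). Without the left control of animal 50, 2 of the 5 chains were called.

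Of 12 proteoglycan and hyaluronan genes, 3 rose and 1 fell, near the shares of 22.1% and 11.7% over all features. The 3 that rose were asporin, versican and lumican (LUM), and all 3 lost their calls with the local background not capped. In that setting 1 other gene of the list was higher. Versican (VCAN), a large proteoglycan that carries hyaluronan, rose by 2.14 ± 0.41 (adjusted p = 0.000624) and had 0.94, 2.55 and 3.79 as its lowest, median and highest mid level, against 0.78, 0.37, -0.22 and 0.75 in control skin. The hyaluronan synthase HAS3 was the one that fell, with -0.27, 0.21 and 0.77 in mid scar, against 1.64, 1.58, 2.39 and 1.24 in control skin. The groups did not overlap, and the difference was -1.54 ± 0.20 (adjusted p = 1.43e-05). Decorin (DCN), a collagen-binding proteoglycan, differed by 1.04 and narrowly missed the threshold (adjusted p = 0.0523). Of 8 matricellular and elastic fibre genes, periostin (POSTN) alone rose, by 1.67 ± 0.44 (adjusted p = 0.00691), and this call too was lost without the left control of animal 50. The POSTN call was also lost when all probes of the gene were averaged. Tenascin C (TNC) and SPARC differed by 1.03 and 1.35 without passing (adjusted p = 0.134 and 0.0622).

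Of 4 collagen processing enzymes, 3 rose. FKBP10, a chaperone of collagen in the endoplasmic reticulum, had 1.38, 2.74 and 3.67 as lowest, median and highest level in mid scar, against 1.22, 1.42, 0.37 and 0.68 in control skin. It rose by 1.78 ± 0.34 (adjusted p = 0.000735). P4HA1, a subunit of the enzyme that hydroxylates proline in collagen, rose by 1.14 ± 0.26 (adjusted p = 0.00243), and the collagen chaperone SERPINH1 by 1.1 ± 0.33 (adjusted p = 0.0153). The P4HA1 call was lost when all probes of the gene were averaged. The SERPINH1 call was lost without the left control of animal 50, and also with the local background not capped. Lysyl oxidase (LOX), which starts collagen cross-links, differed by 0.84 ± 0.43 and did not pass (adjusted p = 0.143).

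Of 16 matrix proteases and inhibitors, 7 rose and none fell (median 0.99). Without the left control of animal 50, 4 were higher, and with the local background not capped, 3 were. MMP14, a membrane-bound collagenase, had 0.73, 2.30 and 3.46 as lowest, median and highest mid level, against -0.09, 0.62, -0.11 and 0.74 in control skin, and rose by 1.98 ± 0.41 (adjusted p = 0.0014). Urokinase (PLAU), which activates plasmin, had 1.28, 2.32 and 2.81 in mid scar, against 0.46, 1.40, 0.58 and 1.66 in control skin, and rose by 1.06 ± 0.27 (adjusted p = 0.00517). In both genes the lowest mid value lay within the controls. The inhibitors TIMP1 and TIMP2 rose by 1.35 ± 0.29 and 0.97 ± 0.26 (adjusted p = 0.00163 and 0.00722). MMP11, a protease of remodelling stroma, rose by 1.21 ± 0.36 (adjusted p = 0.0152), a call lost without the left control of animal 50. The list mean was highest in the 2 biopsies with high macrophage genes, 1.53 in sham hypo of animal 49 and 1.48 in pressure hyper of animal 50, and the part of these cells in the result was not tested.

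**Figure D3:**
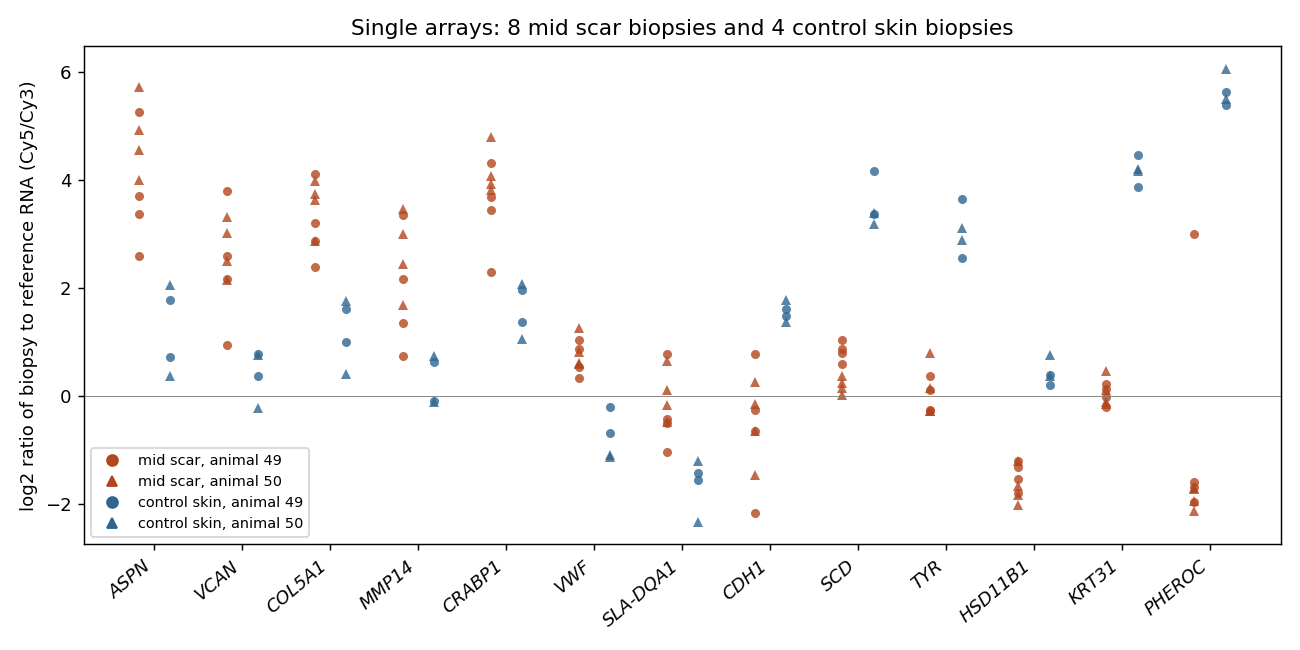
Log2 ratio of biopsy to reference RNA (vertical axis) of 13 genes on each mid scar array (orange, 8 biopsies) and each control array (blue, 4 biopsies), with circles for animal 49 and triangles for animal 50. ASPN, COL5A1 and VWF lie above all controls in every mid biopsy, and SCD, TYR, HSD11B1 and KRT31 below. The orange point of PHEROC at 3.01 is the sham hyper biopsy of animal 49.

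Ligands and regulators of the TGF-beta and BMP pathway moved in both directions, with 3 of 23 genes higher and 5 lower, or 3 lower without the right control of animal 49. TGF-beta drives collagen production in fibroblasts, and BMPs take part in patterning hair follicles. TGFB1 had -1.01, -0.38 and 0.65 as lowest, median and highest level in mid scar, against -1.90, -1.39, -1.65 and -1.59 in control skin. The groups did not overlap and the difference was 1.30 ± 0.23 (adjusted p = 0.000333). TGFB3 rose by 1.25 ± 0.32 and the accessory receptor endoglin (ENG) by 0.88 ± 0.23 (adjusted p = 0.00579 and 0.00636). The TGFB3 call was lost without the left control of animal 50, and also with the local background not capped. BMP2 had -0.10, 0.36 and 0.74 in mid scar, against 1.76, 1.83, 1.85 and 1.17 in control skin, and fell by 1.33 ± 0.18 on the log2 scale (adjusted p = 3.7e-05). BMP4 was well above background in 1 of 8 mid biopsies and in 4 of 4 controls. Its level in the 7 mid biopsies with a value ran from -0.49 to -0.01, against 1.30, 0.88, 1.37 and 0.91 in control skin, and it differed by -1.35 ± 0.15 (adjusted p = 6.1e-06).

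WNT genes also moved in both directions. Of 7 measured, 1 rose and 2 fell, against 22.1% and 11.7% over all features. SFRP4, a secreted WNT antagonist, had -0.52, 3.16 and 3.89 as its lowest, median and highest mid level, against -0.08, 0.99, 0.01 and 1.86 in control skin. It rose by 1.88 ± 0.53 (adjusted p = 0.00978), with overlap, and lost its call without the left control of animal 50. DKK2, another WNT antagonist, had -0.19, 0.68 and 1.30 in mid scar, against 2.43, 3.27, 2.21 and 3.54 in control skin, and fell by 2.16 ± 0.37 on the log2 scale (adjusted p = 0.000248). LEF1, a transcription factor of the WNT pathway active in hair follicles, had 0.04, 0.44 and 1.68 in mid scar, against 2.23, 2.04, 2.46 and 2.07 in control skin. It fell by 1.53 ± 0.26 (adjusted p = 0.000293), and neither DKK2 nor LEF1 overlapped between the groups.

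Of 12 growth factors and receptors of wound tissue, 1 rose and 3 fell. Pleiotrophin (PTN), a heparin-binding growth factor, was the one that rose, by 2.08 ± 0.59 (adjusted p = 0.0108), with mid values from -0.52 to 3.87. Amphiregulin (AREG) and TGFA are ligands of the EGF receptor made by keratinocytes. Both were not well above background in any of the 8 mid biopsies and well above it in all 4 controls, so only a bound can be given. Such bounds come from the Cy5 channel alone, and without dye swaps they are open to dye bias. AREG was at least 4.44-fold lower in mid scar (adjusted p = 4.4e-08), with levels of -0.41 to 0.24 in 7 mid biopsies, against 1.99, 2.14, 2.74 and 1.78 in control skin. TGFA was at least 2.13-fold lower (adjusted p = 2.51e-06). FGFR2, an epithelial receptor for fibroblast growth factors, fell by 0.83 ± 0.16 (adjusted p = 0.000832), but 1 of its 2 probes did not show this. In the insulin-like growth factor list, 2 of 10 rose and 1 fell, near the shares of 22.1% and 11.7% over all features. IGFBP7 rose by 0.91 ± 0.25, IGF1 by 0.53 ± 0.17, and IGFBP3 fell by 0.76 ± 0.24 (adjusted p = 0.00925, 0.0186 and 0.0189). All 3 calls were lost with slide as a further block.

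Fibroblast markers rose in 5 of 7 cases (median 0.80). CRABP1, which binds retinoic acid in the cytoplasm, had 2.30, 3.87 and 4.80 as lowest, median and highest mid level, against 1.36, 1.97, 1.05 and 2.07 in control skin, and rose by 2.18 ± 0.46 (adjusted p = 0.00142). CDH11, the cadherin of mesenchymal cells, had 0.86, 2.04 and 3.04 in mid scar, against 0.66, 0.64, 0.06 and 0.64 in control skin, and rose by 1.5 ± 0.35 (adjusted p = 0.00297). Neither gene overlapped between the groups, but CDH11 lost its call with the local background not capped. The surface markers DPP4 and THY1 rose by 0.80 ± 0.24 and 0.54 ± 0.16 (adjusted p = 0.0146 and 0.0156), and both lost the call when the right control of animal 49 or the left control of animal 50 was left out. Without the left control of animal 50, 2 of the 7 genes were higher and 1 was lower, and without the right control of animal 49, 3 were higher.

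Vessel genes were higher, with 10 of 17 endothelial genes up and 3 down (median 0.69). Von Willebrand factor (VWF), a clotting protein stored in endothelial cells, had 0.33, 0.71 and 1.26 as lowest, median and highest mid level, against -0.70, -0.21, -1.1 and -1.13 in control skin. It rose by 1.54 ± 0.23 (adjusted p = 9.41e-05). P-selectin (SELP), which tethers leukocytes to the vessel wall, had 0.01, 1.02 and 1.40 in mid scar, against -1.17, -0.61, -1.45 and -0.66 in control skin, and rose by 1.82 ± 0.29 (adjusted p = 0.000164). In both, all mid biopsies lay above all controls. The protein C receptor PROCR went the other way, with 0.21, 0.87 and 1.27 in mid scar, against 2.10, 1.76, 2.10 and 1.95 in control skin, and a difference of -1.19 ± 0.15 (adjusted p = 1.33e-05). The vasoconstrictor endothelin 1 (EDN1), which keratinocytes also make, fell by 0.48 on the log2 scale (adjusted p = 0.0303). Without the left control of animal 50, 7 endothelial genes were higher and 1 lower, and with slide as a further block 6 were higher and 1 lower. CCL21, a chemokine of lymphatic vessels and the single measured member of that list, rose by 1.02 ± 0.33 (adjusted p = 0.0241), a call lost without the right control of animal 49 or the left control of animal 50.

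Mural and contractile cells showed few calls, 1 higher and 1 lower of 10. RGS5, a marker of pericytes, had 2.84, 3.44 and 4.32 as lowest, median and highest mid level, against 1.82, 2.03, 1.64 and 1.98 in control skin, and rose by 1.58 ± 0.28 (adjusted p = 0.000325). RGS4, a related regulator of G-protein signalling that is no member of the list, rose by 1.97 ± 0.41 (adjusted p = 0.00151). CNN1, a calponin of smooth muscle, had -3.58, -1.94 and -0.75 in the 7 mid biopsies with a value, against -0.70, 0.02, -0.46 and -0.57 in control skin, and fell by 1.49 ± 0.34 (adjusted p = 0.00243). The calls of RGS4 and CNN1 were lost with slide as a further block, and that of RGS5 with the local background not capped. Smooth muscle actin (ACTA2), the usual marker of myofibroblasts, differed by -0.34 ± 0.27 (adjusted p = 0.346).

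Genes of antigen presentation were higher in mid scar in 12 of 17 cases, with none lower and a median of 0.85. The pig's class II gene SLA-DQA1, which presents peptides to helper T cells, had -1.05, -0.30 and 0.77 as lowest, median and highest mid level, against -1.56, -1.43, -2.34 and -1.21 in control skin. All mid values lay above all controls, and the difference was 1.49 ± 0.30 (adjusted p = 0.00104). SLA-DMA, which loads peptides onto class II molecules, rose by 0.99 ± 0.22 (adjusted p = 0.00192). IFI30, a lysosomal thiol reductase that prepares antigens, had 0.25, 1.33 and 2.20 in mid scar, against -0.84, -0.39, -0.97 and -0.54 in control skin, and rose by 1.96 ± 0.30 (adjusted p = 9.44e-05). Without the 2 biopsies high in macrophage genes, 9 of the 17 genes were higher, and without the left control of animal 50, 8 were.

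Interferon response genes rose in 11 of 32 cases and none fell (median 0.52). EIF2AK2, a kinase that senses double-stranded RNA, had 0.02, 0.48 and 0.81 as lowest, median and highest mid level, against -0.52, -0.44, -0.81 and -0.31 in control skin. It rose by 1.01 ± 0.16 (adjusted p = 0.000165), and the groups did not overlap. IRF9, a transcription factor of the interferon response, and OAS2, an antiviral enzyme, rose by 0.62 ± 0.13 and 1.09 ± 0.23 (adjusted p = 0.00118 and 0.00152). The mean of the list was even across mid biopsies, from 0.41 to 0.67 relative to the control mean, against -0.31 to 0.24 in control skin. With the 2 macrophage-high biopsies left out, 9 genes were higher, and with the left control of animal 50 or the right control of animal 49 left out, 6 were, as also with slide as a further block.

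Myeloid genes rose unevenly between biopsies. Of 27 macrophage and dendritic cell genes, 13 rose and 1 fell (median 0.90). The Fc receptor FCGR3A had -1.29, -0.71 and 0.10 as lowest, median and highest mid level, against -2.02, -1.99, -2.28 and -1.53 in control skin, and rose by 1.32 ± 0.26 (adjusted p = 0.000825). CD14, a receptor for bacterial lipopolysaccharide, rose by 0.55 ± 0.12 in 1 of its 2 probes (adjusted p = 0.00202). CD1D, which presents lipids, fell by 0.69 ± 0.14 (adjusted p = 0.0013). Without the 2 biopsies with the highest list mean, 8 genes were higher, and without the left control of animal 50, 7 were. Without the muscle-bearing biopsy, 19 were higher.

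Phagocyte oxidase and complement genes depended more on single biopsies. Of 13 neutrophil and phagocyte oxidase genes, 3 rose and 1 fell, near the shares of 22.1% and 11.7% over all features. None was higher without the 2 macrophage-high biopsies. GP91-PHOX, the catalytic subunit of the oxidase, ranged from -2.70 to 2.58 with a median of -1.36 in mid scar (adjusted p = 0.0424). Its call, and those of its partner CYBA and of the integrin ITGB2 (adjusted p = 0.0436 and 0.0474), were lost when any of several single biopsies was left out. Of 20 complement genes, 6 rose and none fell. None was higher without the left control of animal 50, 1 without the sham hyper biopsy of animal 50, 2 when either control of animal 49 was left out and 3 without the pressure hypo biopsy of animal 49. Complement C2 had -1.05, -0.81 and -0.27 in mid scar, against -1.78, -1.38, -1.83 and -1.12 in control skin, and rose by 0.75 ± 0.22 (adjusted p = 0.0124). The C2 call was also lost when all probes of the gene were averaged. C3 and C1QA rose by 0.92 ± 0.31 and 0.58 ± 0.20 (adjusted p = 0.027 and 0.0275).

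Of 20 lysosome genes, 6 rose and 1 fell. NPC2, which carries cholesterol out of lysosomes, rose by 1.18 ± 0.28, and cathepsin A (CTSA) by 0.96 ± 0.26 (adjusted p = 0.00367 and 0.0076). The lysosomal membrane protein LAMP2 fell by 0.76 ± 0.15 (adjusted p = 0.000995). The list mean was 1.95 and 1.60 in the 2 macrophage-high biopsies and between -0.46 and 0.69 in the other mid biopsies. Without these 2 biopsies, 2 lysosome genes were higher, and without the left control of animal 50 also 2. Without the muscle-bearing biopsy, 10 were higher. The count was 3 when either control of animal 49 was left out, and 3 without the sham hypo biopsy of animal 49.

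T and NK cell genes were called in 3 of 15 cases, all higher and all small, namely KLRK1 (0.46), granzyme B (GZMB, 0.54) and CD3G (0.49), with adjusted p-values of 0.0305, 0.031 and 0.0316. Over all features 22.1% were higher, a share near these 3 of 15. None of the 15 was higher without the left control of either animal, without the pressure hypo biopsy of animal 50, or with slide as a further block. Among 34 cytokines and chemokines, 5 rose and 4 fell, against 22.1% higher and 11.7% lower over all features. The higher count was 1 without the left control of animal 50, 2 without the right control of animal 49 or with slide as a further block, 3 without the macrophage-high biopsies and 8 without the sham hypo biopsy of animal 50. CCL19, which draws T cells and dendritic cells, had -0.76, -0.09 and 0.54 as lowest, median and highest mid level, against -1.45, -1.12, -1.74 and -0.86 in control skin, and rose by 1.2 ± 0.31 (adjusted p = 0.00535). CCL28, a chemokine of epithelia, had -0.68, 0.77 and 2.07 in mid scar, against 1.94, 2.13, 2.41 and 2.36 in control skin, and fell by 1.52 ± 0.35 (adjusted p = 0.00262). Interleukin 1 alpha (IL1A), which keratinocytes store, fell by 0.80 ± 0.13 (adjusted p = 0.000132), and IL27 fell by 0.65 ± 0.16 (adjusted p = 0.00518). CCL27, the chemokine of epidermal keratinocytes, fell by 1.06 ± 0.37 (adjusted p = 0.033), with the call lost under 6 of the 12 fits that left out 1 array.

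Of 14 integrin and adhesion genes, 9 rose and 1 fell. The higher count was 5 without the left control of animal 50, 5 with slide as a further block and 5 without the 2 macrophage-high biopsies. Integrin beta 1 (ITGB1), the common subunit of matrix receptors, had 0.70, 1.32 and 1.85 as lowest, median and highest mid level, against -0.50, -0.45, -0.65 and -0.32 in control skin. It rose by 1.72 ± 0.18 (adjusted p = 1.93e-06), without overlap. E-cadherin (CDH1), the adhesion molecule of epithelia, was the one that fell, with -2.17, -0.46 and 0.78 in mid scar, against 1.47, 1.60, 1.77 and 1.36 in control skin. Its difference was -2.09 ± 0.32 (adjusted p = 0.000105).

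Gland genes showed the largest falls among genes with a symbol. Of 13 sweat and apocrine gland genes, 8 fell and 1 rose (median -1.07). PHEROC, a subunit of a pheromone-binding protein of pig glands, had -2.13, -1.72 and 3.01 as lowest, median and highest mid level, against 5.63, 5.39, 6.07 and 5.51 in control skin. Its difference was -6.87 ± 0.73 (adjusted p = 1.75e-06). The value of 3.01 belonged to the sham hyper biopsy of animal 49, and the other 7 mid biopsies did not exceed -1.61. The same biopsy held the highest mid value of the secretoglobin SCGB1D1 (3.10, next -1.27), of the cysteine-rich secretory protein CRISP3 (5.01, next 0.03) and of lactoferrin (LTF, 3.42, next -0.03). In lactoferrin this one biopsy lay above all 4 controls, which had 3.0, 2.84, 3.04 and 3.26. These 3 genes differed by -6.11 ± 0.73, -5.39 ± 0.71 and -2.88 ± 0.48 (adjusted p = 7e-06, 2.53e-05 and 0.000198). Without that biopsy, the 4 differences were -7.42 for PHEROC, -6.67 for SCGB1D1, -6.01 for CRISP3 and -3.33 for LTF.

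Further gland genes fell too, with some spread between mid biopsies. Carbonic anhydrase 6 (CA6), a secreted enzyme of glands, had 0.00, 0.63 and 1.84 as lowest, median and highest mid level, against 4.17, 3.92, 3.62 and 4.31 in control skin, and fell by 3.34 ± 0.22 (adjusted p = 1.44e-09). The gland transcription factor FOXA1 had -1.99, -1.5 and -0.28 in mid scar, against 1.61, 0.85, 1.97 and 1.73 in control skin, and fell by 2.93 ± 0.28 (adjusted p = 4.42e-07). Its value of -0.28 again belonged to the sham hyper biopsy of animal 49, and the next was -1.17. SPDEF, a transcription factor of secretory epithelia, fell by 1.5 ± 0.15 (adjusted p = 1.09e-06).

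Of 4 hair follicle genes, 3 fell and 1 rose. KRT31, a keratin of the hair shaft, was not well above background in any mid biopsy and well above it in all controls. Its level ran from -0.21 to 0.46 in mid scar, against 4.46, 3.88, 4.17 and 4.21 in control skin (adjusted p = 5.98e-15, limma). The difference of -4.13 ± 0.13 rests on mid values near background, so it does not measure the size of the fall. SOX9, a transcription factor of follicle stem cells, showed the same detection pattern and was at least 1.77-fold lower (adjusted p = 0.00164). LHX2, another follicle regulator, fell by 0.51 (adjusted p = 0.0187), a call lost without either control of animal 49 or the left control of animal 50. CRYM rose by 0.45 ± 0.14 (adjusted p = 0.0153), a call lost without the left control of animal 50. Relaxin 2 (RLN2), a peptide hormone in the retinoid and steroid list, was detected in no mid biopsy and in all 4 controls. Its level ran from -0.38 to 0.08 in mid scar, against 4.04, 3.57, 4.07 and 2.90 in control skin (adjusted p = 4.4e-12, limma). The difference of -3.75 ± 0.17 likewise rests on mid values near background and does not measure the size of the fall.

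Epidermal genes fell in 4 of 8 cases and none rose (median -1.23). Claudin 4 (CLDN4), a tight junction protein, had -0.40, -0.09 and 0.53 as lowest, median and highest mid level, against 2.05, 1.67, 1.96 and 1.39 in control skin, and fell by 1.77 ± 0.15 (adjusted p = 4.46e-08). Corneodesmosin (CDSN), which glues cornified cells together, had -0.10, 0.38 and 0.65 in mid scar, against 1.91, 1.49, 1.71 and 1.58 in control skin, and fell by 1.32 ± 0.14 (adjusted p = 1.51e-06). Plakoglobin (JUP), a junction protein, fell by 1.14 ± 0.34 (adjusted p = 0.0137). Involucrin (IVL), a precursor of the cornified envelope, was well above background in all 8 mid and all 4 control biopsies, and its difference of -0.99 ± 0.40 did not pass (adjusted p = 0.0584). None of 10 activated keratinocyte and alarmin genes was called (limma, median -0.36).

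Of 18 sebaceous gland and lipid synthesis genes, 12 fell and none rose (median -0.96), and 11 to 13 fell under every alternative tried over both animals. The desaturase SCD, which makes monounsaturated fatty acids, had 0.02, 0.47 and 1.03 as lowest, median and highest mid level, against 4.17, 3.38, 3.39 and 3.18 in control skin. It fell by 3.03 ± 0.19 (adjusted p = 1.35e-09). FABP7, a fatty acid carrier, had -1.54, -1.04 and -0.58 in mid scar, against 1.70, 0.71, 1.13 and -0.22 in control skin, and fell by 1.88 ± 0.27 (adjusted p = 6.24e-05). Both genes separated the groups. The droplet coat protein PLIN2 fell by 1.24 ± 0.21, and the cholesterol synthesis enzymes SQLE and CYP51 by 1.53 ± 0.23 and 1.05 ± 0.18 (adjusted p = 0.000195, 9.07e-05 and 0.000239).

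Of 21 adipocyte genes, 10 fell and none rose (median -0.82). Perilipin 1 (PLIN1), which coats the fat droplet, had -0.27, 0.12 and 1.04 as lowest, median and highest mid level, against 1.57, 1.26, 0.70 and 1.63 in control skin, and fell by 1.12 ± 0.21 (adjusted p = 0.000494). The lipase PNPLA2 fell by 1.18 ± 0.20 (adjusted p = 0.00032). Hormone-sensitive lipase (LIPE) ran from -1.29 to 2.12 with a median of -0.42 in mid scar, against 2.16, 1.30, 1.19 and 2.63 in control skin, and fell by 1.98 ± 0.52 (adjusted p = 0.0066), a call lost with slide as a further block. The list mean was 0.69 in the muscle-bearing biopsy and between -1.31 and -0.42 in the other mid biopsies. Without the left control of animal 50, 7 genes fell, without the right control of animal 50, 6 did, and with slide as a further block, 4 did.

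Pigment genes fell in 6 of 16 cases and none rose (median -0.32). Tyrosinase (TYR), the first enzyme of melanin synthesis, had -0.29, -0.08 and 0.79 as lowest, median and highest mid level, against 3.65, 2.55, 3.12 and 2.89 in control skin. It was well above background in 2 of 8 mid biopsies and fell by 3.02 ± 0.20 (adjusted p = 2.44e-09), a difference that rests on mid values near background. TYRP1, a later enzyme of the pathway, had -0.08, 0.52 and 1.59 in mid scar, against 2.96, 1.91, 2.73 and 2.12 in control skin, and fell by 1.81 ± 0.28 (adjusted p = 9.37e-05). Both genes separated scar from control skin. RAB27A and MLPH, which tether melanosomes to the actin skeleton, fell by 0.79 ± 0.15 and 0.56 ± 0.15 (adjusted p = 0.000559 and 0.00667), and the endothelin receptor EDNRB by 0.85 ± 0.21 (adjusted p = 0.00492). The melanosomal transporter OCA2 was detected in none of 8 mid biopsies and in 3 of 4 controls, and was at least 1.53-fold lower (adjusted p = 0.00579).

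The other 10 pigment genes did not pass. Dopachrome tautomerase (DCT), the third enzyme of the melanin pathway, differed by 0.30 ± 0.22 (adjusted p = 0.295) and was well above background in all 8 mid biopsies. The melanocortin receptor MC1R differed by 0.00 ± 0.17 (adjusted p = 0.998), and the stem cell factor receptor KIT by 0.14 ± 0.21 (adjusted p = 0.627). MITF, the master regulator of melanocytes, differed by -0.63 ± 0.25 (adjusted p = 0.0548). GPNMB, a glycoprotein of melanosomes and of macrophages, ran from -0.43 to 4.12 in mid scar and differed by -1.1 ± 0.59 (adjusted p = 0.158). Its highest values, 4.12 and 3.05, lay in the 2 macrophage-high biopsies, and the part of these cells was not tested. SOX10, AP3B1, HPS1, RAB32 and DTNBP1 differed by -0.09 to 0.44. Of 8 signals acting on melanocytes, BMP4, IL1A and EDN1 fell, as given above, and none rose.

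Genes of oxidative defence fell in 7 of 18 cases and none rose (median -0.29). The count was 4 with slide as a further block, and 4 when the right control of animal 49 or the left control of animal 50 was left out. NQO1, a quinone reductase, had -0.70, 0.03 and 0.18 as lowest, median and highest mid level, against 1.60, 1.1, 1.38 and 0.59 in control skin, and fell by 1.24 ± 0.15 (adjusted p = 1.06e-05). The peroxiredoxin PRDX6 had -1.76, -1.05 and -0.34 in mid scar, against 0.69, 0.35, 1.12 and -0.05 in control skin, and fell by 1.53 ± 0.21 (adjusted p = 2.61e-05). Catalase (CAT) and the glutathione peroxidase GPX2 fell by 1.38 ± 0.27 and 1.05 ± 0.19 (adjusted p = 0.000916 and 0.000494). The carbonyl reductase CBR1, among the 15 lowest named genes, had -3.06, -1.98 and 0.28 in mid scar, against 1.29, 1.01, 1.77 and 1.08 in control skin, and fell by 3.13 ± 0.29 (adjusted p = 3.07e-07).

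Ribosomal protein genes fell in 16 of 35 cases and none rose (median -0.37), by small amounts. RPL7 had 0.16, 0.39 and 0.64 as lowest, median and highest mid level, against 0.76, 0.98, 1.29 and 1.05 in control skin, and fell by 0.64 ± 0.11 (adjusted p = 0.000283). RPS3A and RPL3 fell by 0.74 ± 0.13 and 0.63 ± 0.12 (adjusted p = 0.000401 and 0.000694). The count ranged from 4 to 24 over the alternatives that used both animals. Of 15 cell cycle genes, 4 fell and none rose. The topoisomerase TOP2A, made in dividing cells, had -0.81, -0.01 and 0.28 in mid scar, against 0.87, 0.73, 1.04 and 0.43 in control skin, and fell by 0.92 ± 0.19 (adjusted p = 0.000978). MCM3, CDK4 and CCNB1 fell by 0.55, 0.67 and 0.78, and these 3 calls were lost with slide as a further block and also without the left control of animal 50.

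Steroid and metabolic genes included some of the clearest single differences. HSD11B1, which regenerates active cortisol from cortisone inside cells, had -2.02, -1.61 and -1.21 as lowest, median and highest mid level, against 0.38, 0.19, 0.36 and 0.76 in control skin. It fell by 2.0 ± 0.18 (adjusted p = 3.6e-07), with no overlap. The steroid dehydrogenase HSD3B1 fell by 0.58 (adjusted p = 0.003), and the oestrogen receptor ESR1 rose by 0.76 (adjusted p = 0.0244). The HSD3B1 call was lost without the left control of animal 50. The ESR1 call was lost without the right control of animal 50, without the muscle-bearing biopsy and with slide as a further block. PDK4, a kinase that restrains pyruvate oxidation, ran from -5.00 to -0.69 with a median of -3.93 in mid scar, against -1.33, -1.72, -2.72 and -0.20 in control skin, and fell by 2.30 ± 0.59 (adjusted p = 0.00575). Its value of -0.69 belonged to the muscle-bearing biopsy, and the next was -3.22. Of 15 glycolysis and hypoxia genes, 3 fell, namely PDK1 by 0.54, HIF1A by 0.73 (adjusted p = 0.00796 and 0.00848), and hexokinase HK2, which was detected in no mid biopsy and in all controls and was at least 1.48-fold lower (adjusted p = 0.00158).

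Among 40 genes of skeletal muscle, 3 were called higher and 1 lower (PDK4), with a median of 0.96 that came to 0.64 without the muscle-bearing biopsy. The 3 that rose were the muscle regulator MYOG (0.81 ± 0.14), the tropomyosin TPM3 (0.82 ± 0.18) and the slow myosin MYH7 (0.91 ± 0.28), with adjusted p-values of 0.000341, 0.00174 and 0.0172. TPM3 and MYH7 lost their calls when all probes of a gene were averaged. TPM3 also lost its call with slide as a further block, and MYH7 with the local background not capped. With the 2 macrophage-high biopsies left out, 17 of the 40 were higher, and with the pressure hyper biopsy of animal 50 alone left out, 16 were.

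Features without a gene symbol held differences as large as the named ones. DN120563 was well above background in all 8 mid biopsies and in no control, so only a bound can be given. It was at least 10-fold higher in mid scar (adjusted p = 0.000618), with levels of 0.15 to 4.25, against -0.99 to -0.59 in control skin. ENSSSCT00000007758 rose by 3.08 (adjusted p = 0.00018). TC539081 fell by 6.65 on the log2 scale (adjusted p = 5.93e-07) and NM_001244603 by 6.53 (adjusted p = 8.23e-05), the second with one mid value of 6.83 close to the controls at 6.98 to 7.78. Both were well above background in 1 of 8 mid biopsies, so their differences rest on mid values near background.

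The groups set apart by pigmentation were compared next, 4 hyper against 4 hypo mid biopsies. No feature of 18766 was called by limma (0%), while 1764 had an unadjusted p under 0.05, and the lowest adjusted p was 0.52. In the melanin enzymes TYR and TYRP1 the 4 hyper biopsies lay above the 4 hypo biopsies. Of all 18766 features, 120 had every hyper value above every hypo value and 160 had the reverse, so the separation alone does not set these enzymes apart. Hyper values follow as pressure and sham of animal 49, then pressure and sham of animal 50, and hypo values as sham and pressure of animal 49, then pressure and sham of animal 50. TYR had 0.11, 0.36, 0.14 and 0.79 in hyper scar, against -0.27, -0.29, -0.28 and -0.29 in hypo scar, a difference of 0.63 ± 0.24 (adjusted p = 0.52). TYRP1 had 0.80, 1.59, 0.59 and 1.41 in hyper scar, against 0.16, 0.05, 0.44 and -0.08 in hypo scar, a difference of 0.96 ± 0.32 (adjusted p = 0.52). The TYR values lie near background, where 2 of these 8 biopsies were well above it. Neither difference was significant over all features, and all 8 values stayed below every control of the gene. DCT had 1.55, 1.94, 0.40 and 2.10 in hyper scar, against 0.65, 0.90, 1.63 and 0.92 in hypo scar, and overlapped. Of the pigment genes, MLPH differed by 0.38 ± 0.17 and RAB32 by -0.43 ± 0.17 (adjusted p = 0.52 each). The 5 named genes of lowest p were RSC1A1 (-0.79 ± 0.20, in 1 of 4 probes), THY1 (-0.69 ± 0.19), FUT1 (0.50 ± 0.14), PIP4K2A (-0.92 ± 0.26) and GFPT1 (-0.44 ± 0.13), none of them past the threshold. Leaving out the pressure hyper biopsy of animal 50 gave 104 calls, and slide as a further block gave 32.

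Pressure was compared with sham mid scar, 4 biopsies each, and no feature was called (limma, 0% of 18766), with 852 at an unadjusted p under 0.05 and a lowest adjusted p of 0.999. EDARADD, an adaptor of the ectodysplasin pathway of skin appendages, differed by -1.11 ± 0.29, the beta-defensin DEFB1 by -0.60 ± 0.17 and TFAP2B by -0.48 ± 0.14. SFRP4 differed by 1.78 between pressure and sham (adjusted p = 0.999). The difference of the mid scar effect between the 2 animals was likewise called in no feature (limma, lowest adjusted p 1), with 111 at an unadjusted p under 0.05, or 0.591% of those tested.

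To place mid scar in time, the 4 mid sham biopsies were compared with the 8 early sham biopsies. Of 18766 features 1213 were called (6.46%), 411 higher and 802 lower in mid sham scar. Of features with a symbol, 47 were higher and 115 lower. Among the fixed lists, 2 of 5 collagen chains, 5 of 12 proteoglycan genes, 3 of 8 matricellular genes, 3 of 4 collagen processing enzymes and 7 of 13 secretory pathway genes were lower, and none of these lists held a higher gene. No gene of the endothelial, macrophage, pigment or ribosomal lists was called in this comparison. These counts changed several-fold between settings. Without the sham hypo biopsy of animal 49, 12 features were higher and 12 lower. The counts were 83 and 222 without the sham hyper biopsy of animal 49, and 109 and 120 without that of animal 50. Without the sham hypo biopsy of animal 50, 1245 were lower. Leaving out single early biopsies gave 225 to 420 higher and 524 to 1027 lower. With slide as a further block 42 were higher and 169 lower, and with the local background not capped, none was higher and 2 were lower.

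Mid sham values follow as hyper of animal 49, hyper of animal 50, hypo of animal 49 and hypo of animal 50, and early values as lowest, median and highest. COL1A2, which did not pass against control skin, had 3.70, 3.56, 2.82 and 5.11 in mid sham scar, against 4.41, 6.26 and 7.25 in early sham scar. It fell by 2.39 ± 0.66 (adjusted p = 0.0362). Lysyl oxidase (LOX) had 1.01, 1.69, 0.88 and 3.34 in mid sham scar, against 3.26, 3.69 and 4.04 in early sham scar, and fell by 1.92 ± 0.43 (adjusted p = 0.0143). Decorin (DCN) had 1.06, 1.95, 0.63 and 2.68 in mid sham scar, against 2.48, 3.52 and 4.14 in early sham scar, and fell by 1.92 ± 0.40 (adjusted p = 0.011). In all 3 genes the sham hypo biopsy of animal 50, given last, was the highest of the 4 mid sham biopsies and overlapped with early scar. The hyaluronan synthase SHAS2 had 0.30, 0.85, 0.83 and 2.76 in mid sham scar, against 2.92, 3.39 and 4.49 in early sham scar, with no overlap and a fall of 2.33 ± 0.40 (adjusted p = 0.00554).

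The genes that were lower than in early scar included other secreted and membrane proteins. C1QTNF3, a secreted protein of the C1q and TNF family, had 0.70, 2.52, 1.95 and 5.70 in mid sham scar, against 3.68, 5.89 and 6.97 in early sham scar, and fell by 3.0 ± 0.71 (adjusted p = 0.0171). STEAP1, a membrane metalloreductase, had 1.87, 1.5, 0.53 and 5.05 in mid sham scar, against 4.43, 5.03 and 6.03 in early sham scar, and fell by 3.01 ± 0.60 (adjusted p = 0.0104). Genes of the secretory pathway and protein folding fell by less, XBP1 by 0.92, RPN1 by 0.76 and HSP90B1 by 0.68 (adjusted p = 0.0107, 0.016 and 0.0143). Among genes that also rose against control skin, POSTN, MMP14, VCAN, FKBP10 and P4HA1 were lower in mid sham than in early sham scar by 1.89, 1.69, 1.48, 1.41 and 1.15. The comparisons of mid scar with control skin and with early scar share the mid sham biopsies.

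Of the fixed lists, no epidermal, hair follicle or sebaceous gene was called in mid sham against early sham scar, and of 13 sweat and apocrine gland genes 2 were lower. Among the 34 cytokines and chemokines 2 rose, both of them chemokines that epithelial cells make. CCL27 had 4.54, 4.76, 2.87 and 2.07 in mid sham scar, against 0.28, 2.15 and 3.18 as lowest, median and highest level in early sham scar, and rose by 1.74 ± 0.37 (adjusted p = 0.0118). CCL28 had 2.07, 1.34, -0.68 and 0.98 in mid sham scar, against -1.37, -0.21 and 0.13 in early sham scar, and rose by 1.30 ± 0.35 (adjusted p = 0.0312). EDARADD had 2.21, 2.56, 1.58 and 1.08 in mid sham scar, against 0.01, 0.36 and 1.59 in early sham scar, and rose by 1.34 ± 0.25 (adjusted p = 0.00744). The transcription factor TFAP2C rose by 1.48 and the sulphotransferase SULT1E1, which inactivates oestrogens, by 1.05 (adjusted p = 0.0393 and 0.0266).

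**Figure D4:**
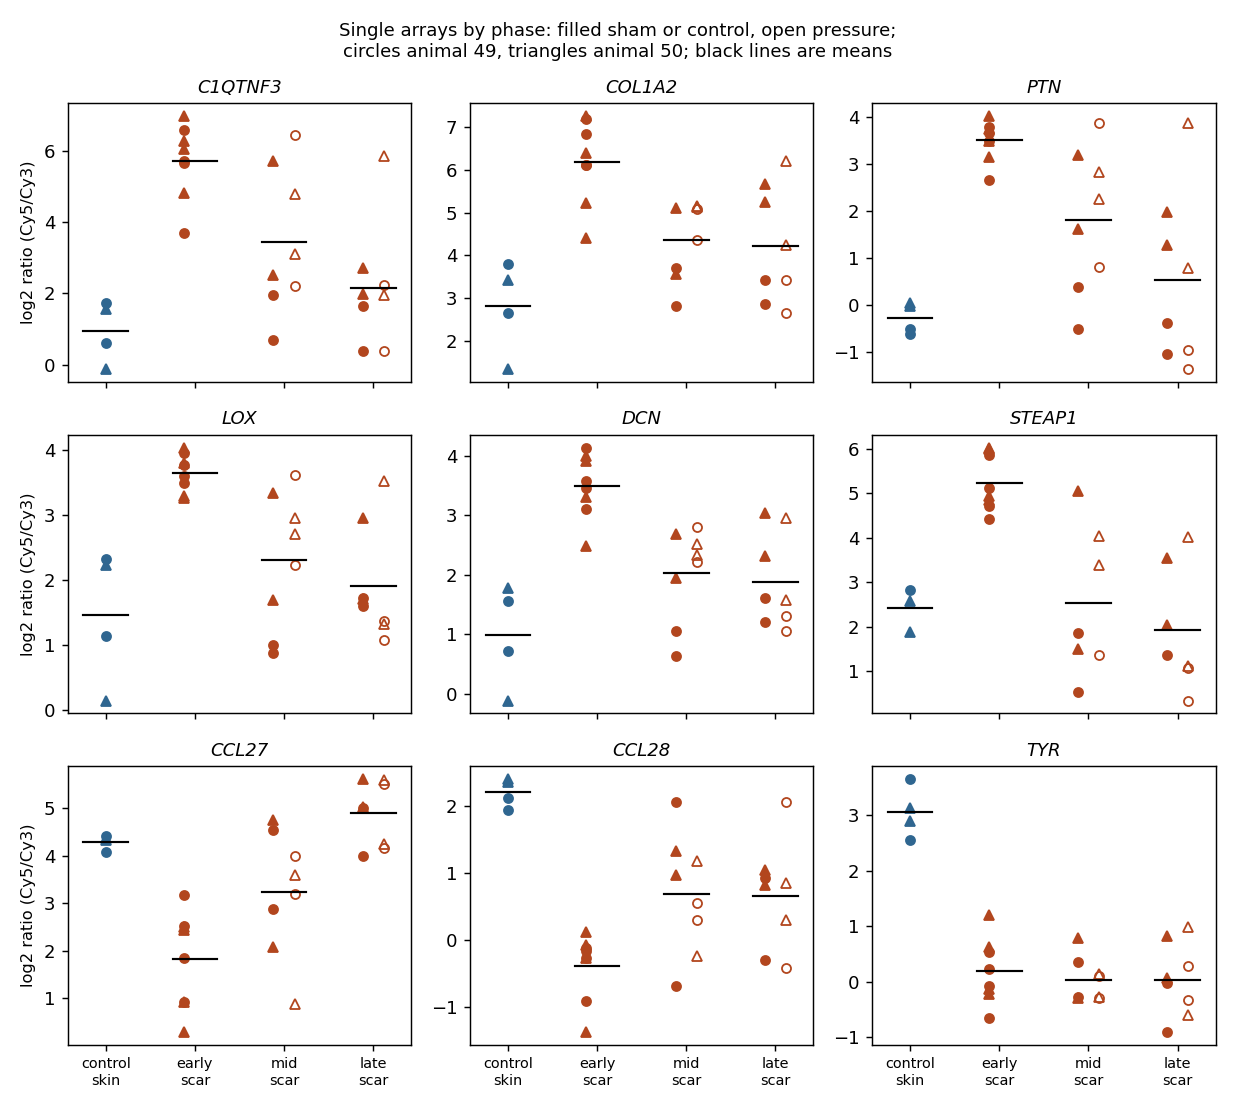
Log2 ratio of biopsy to reference RNA (vertical axis, its own range in each panel) of 9 genes on single arrays of control skin, early, mid and late scar, with filled points for sham or control, open points for pressure, circles for animal 49, triangles for animal 50 and black lines for means. COL1A2, LOX, DCN, STEAP1, C1QTNF3 and PTN have their highest mean in early scar, CCL27 and CCL28 their lowest, and TYR is below every control at all 3 scar phases.

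Mid and late scar, 8 biopsies each, differed in 1 of 18766 features (0.00533%), with 2159 at an unadjusted p under 0.05. This was ENSSSCT00000017653, with a mean of -0.39 in mid scar and 0.27 in late scar and a difference of -0.66 ± 0.10 (adjusted p = 0.0352). Among named genes CCL27 came closest, with a difference of -1.66 ± 0.30 (adjusted p = 0.0825) and 4.0, 5.02 and 5.62 as lowest, median and highest level in late scar. DIO2, which activates thyroid hormone, differed by -1.13 ± 0.20 (adjusted p = 0.0825) and the interferon response gene IFIT1 by -0.82 ± 0.16 (adjusted p = 0.133). TYR differed by 0.00 (adjusted p = 0.999).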

How the data were processed

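The 28 files are 2-colour Agilent arrays of 43603 probes, read with Agilent Feature Extraction 10.7.1.1 per the submitters' processing notes, on 7 slides of 4. The deposited files give spot intensity per channel, as the authors' scanner program wrote it, with Cy5 the biopsy and Cy3 the reference and no dye swap. The authors' deposited value table holds log2 ratios that equal, within 0.001 on every array, the ratio of the scanner program's processed signals (Cy5 over Cy3); its making is not given in the sources used here. From median spot intensities, the local background (capped per array at its 99th percentile, a choice made after seeing these data) was corrected with normexp (offset 50), followed by loess within arrays in limma 3.58.1 under R 4.3.3; figures used matplotlib 3.10.9. Outlier spots were left missing and control spots given weight 0 in loess. Probes well above background in Cy5 on at least 4 of 28 arrays were kept (24510), and the probe of highest mean Cy5 stood for each gene.

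The fit had 11 group means over all 28 arrays and the animal as a fixed block. The replicate numbers pair the samples because the titles give the same animal number, and the animal is the block in every fit except the alternative without it. Adjusted p-values (Benjamini-Hochberg, threshold 0.05) cover all 18766 features tested. The steps were tested on simulated data. Transcript accessions in the array files matched RefSeq for 6924 probes, of which 6816 took a symbol (3152 genes) and 108 a provisional locus name only. Precision is limited by the number of arrays. The members and the 43 gene lists were chosen with earlier results of these data known. Genes named are the 15 highest and 15 lowest called with a symbol and one sign in both animals, up to 5 of lowest p of each list, all pigment and collagen genes, and, for other comparisons, up to 8 highest and 8 lowest called or the 5 of lowest p. Alternatives were the background, normalisation, probe filter, probe summary, animal and slide blocks, fewer arrays, and leaving out each array. No sequence or coordinate is given, since no genome build was used here.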

Additional observations from a re-analysis of the deposited data

Results flagged for a closer look

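In each group of 8 mid or 4 control biopsies, a highest or lowest biopsy that stood far from the rest by Dixon's limit was looked for in 301 gene groups and 84 list groups. It was found in 15 and 8 of them, and chance alone gives about 1 in 20. Only the genes chosen for the text were checked for opposite directions in the 2 animals. In none did all mid values lie above the control mean in 1 animal and below it in the other. These genes were chosen mainly by low p or by the same sign in both animals. The outcome was thus largely fixed by that choice and does not extend to other genes.

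The sham hyper biopsy of animal 49 was the highest mid biopsy in the gland genes PHEROC (3.01, next -1.61), SCGB1D1 (3.10, next -1.27), CRISP3 (5.01, next 0.03) and LTF (3.42, next -0.03), and in the sweat and apocrine gland list (-0.75 relative to the control mean, next -1.97). It was the lowest in COL8A1 (-0.55, next 1.70).

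The pressure hyper biopsy of animal 49 was the highest mid biopsy in the skeletal muscle list (4.25, next 1.2), the adipocyte list (0.69, next -0.42), the oxidative phosphorylation list (0.46, next 0.07) and the glycolysis and hypoxia list (0.40, next -0.21). It was also highest in PLIN1 (1.04, next 0.29) and PDK4 (-0.69, next -3.22), and lowest in SQLE (-1.06, next -0.46) and CCNB1 (-1.46, next -0.55).

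Other mid biopsies stood apart in single results. The sham hyper biopsy of animal 50 was highest in PLET1 (2.41, next 0.00) and in C2 (-0.27, next -0.71). The pressure hypo biopsy of animal 50 was highest in the list of signals acting on melanocytes (-0.07, next -0.25).

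Among the controls, the left biopsy of animal 50 was lowest in CDH11 (0.06, next 0.64) and in the insulin-like growth factor list (-0.36, next 0.08), and highest in PLIN2 (2.13, next 1.73). The right control of animal 50 was lowest in BMP2 (1.17, next 1.76) and SQLE (0.69, next 1.25) and highest in the secretory pathway list (0.10, next -0.03).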

How the results depend on the processing

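For mid scar against control skin (4153 higher, 2187 lower), every alternative over both animals left more higher than lower calls, 60.3% to 67.5% of them against 65.5%. With slide as a further block 2779 were higher and 1366 lower. Within animal 49 alone 13 were higher and 91 lower, and within animal 50 alone 236 and 321. Without the animal as a replicate block 4130 were higher and 2149 lower. Leaving out single arrays gave 2404 (without the left control of animal 50) to 4389 higher and 1492 to 2203 lower. For mid sham against early sham scar (411 higher, 802 lower), the uncapped background gave 0 higher and 2 lower, the slide block 42 and 169, and single arrays left out 12 to 542 and 12 to 1245; both lowest counts came without the sham hypo biopsy of animal 49. For mid against late scar (1 called), the uncapped background, the mean of probes and the slide block gave 0, the scanner program's processed signals gave 11, and single arrays left out 0 to 30. For hyper against hypo mid scar (0 called), the processed signals gave 1, the slide block 32, and single arrays left out 0 to 104. For pressure against sham (0 called) single arrays left out gave 0 to 7, and for the difference between animals (0 called) no filter gave 1 and single arrays left out 0 to 8. Of the named genes' results under the alternatives, 3140 kept their side of the threshold, 437 (in 128 genes) fell short of it and 28 (in 8 genes) newly passed. No called value changed sign, but some values that were not called did, such as IVL (-0.99, reaching 0.26) and DCT (0.30, reaching -0.18). Aquantile scaling leaves the ratios within an array as they are. Fits within 1 animal and fits that leave out an array hold fewer samples; for the other changes the cause was not tested. Between 31.4% and 55.7% of probes per array were well above background, which limits what could be detected.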

Other observations

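Of 4 measured B and plasma cell genes, PRDM1, a transcription factor of plasma cells that differentiating keratinocytes also use, fell by 1.18 ± 0.26 (adjusted p = 0.00176, limma), and CD40, a costimulatory receptor, rose by 0.62 ± 0.20 (adjusted p = 0.0238). The CD40 call was lost without the left control of animal 50. The mast cell tryptase MCT7 was the 1 gene of 4 in the mast cell list that rose, by 0.55 ± 0.21 (adjusted p = 0.0467), near the share of 22.1% over all features. The MCT7 call was lost without the muscle-bearing biopsy, without the left control of animal 50 and with slide as a further block. The myelin gene MBP, in the Schwann cell and nerve list, rose by 0.70 ± 0.26 (adjusted p = 0.0429), a call lost in the same settings as that of MCT7. Of 13 immediate early and heat shock genes, MYC fell by 0.76 ± 0.19 (adjusted p = 0.00444) and the chaperone HSP90AA1 rose by 0.79 ± 0.28 (adjusted p = 0.0382). The HSP90AA1 call was lost without the right control of animal 49, which had -2.07, against -0.78 to -0.39 in the other controls. It was also lost without the left control of animal 50 and with slide as a further block. Of 25 oxidative phosphorylation genes, the cytochrome oxidase subunit COX7A2 alone was called, lower by -0.46 ± 0.13 on the log2 scale (adjusted p = 0.00963). Over all features 11.7% were lower, and the COX7A2 call was lost without the left control of animal 50. Outside the lists, the neuropeptide GALP, the gene FAM84A and myocilin (MYOC) were among the 15 lowest named genes in mid scar. They differed by -3.06 ± 0.30, -3.12 ± 0.50 and -3.08 ± 0.82 (adjusted p = 7.37e-07, 0.000153 and 0.00714), and MYOC reached 4.15 in its highest mid biopsy against a median of -1.04.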
